A study of Mus musculus with 2 samples.

Results

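The genes described here are 8 mouse genes whose products sense double-stranded RNA or act on that signal, *Ddx58*, *Ifih1*, *Dhx58*, *Ddx60*, *Mavs*, *Eif2ak2*, *Adar* and *Zbp1*. They were chosen by name, and all 8 of 8 were found among the 55357 genes of both matrices. Their RNA was followed in cells from subcutaneous tumours of the mouse colon adenocarcinoma line MC38, implanted into C57BL/6 mice of 2 kinds, UEIS KI and UEIS LSL. Cells carrying CD45, the pan-leucocyte protein encoded by *Ptprc*, were sorted and profiled by droplet 3′ sequencing with unique molecular identifiers (UMIs), in 1 library per kind of mouse. The series is titled as a study of the micropeptide UEIS and of cGAS-STING and type I interferon signalling. The labels state neither what the KI and LSL alleles are, nor the age or number of the mice, nor whether tumours were pooled.

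RIG-I (*Ddx58*) and MDA5 (*Ifih1*) are cytoplasmic helicases that bind double-stranded RNA and signal through the mitochondrial adaptor MAVS (*Mavs*) to the kinases and transcription factors that switch on interferon genes. LGP2 (*Dhx58*) is a related helicase without the signalling domains that modulates both, and *Ddx60* encodes a further helicase linked to this pathway. The effector arm includes PKR (*Eif2ak2*), which halts translation by phosphorylating eIF2 alpha, the RNA editor ADAR1 (*Adar*), which marks the cell's own double-stranded RNA so that it is not sensed, and ZBP1 (*Zbp1*), which binds left-handed nucleic acids and can start cell death through RIPK3. Most of these genes are themselves induced by interferon, and *Mavs* is generally described as constitutive.

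The sequence around the transcription start shows one difference among the genes that is independent of the counts. No RefSeq window was at hand for *Dhx58* or *Zbp1*. For the other 6 of the 8 genes, *Adar* with 3 starts, windows ran from 250 bases before to 50 bases after a start, on GRCm38.p6. They were searched on both strands for the core of the interferon-stimulated response element, GAAANNGAAA, and for the shorter GAAANGAAA of interferon regulatory factor sites. Either motif lay in at least 1 window of 5 of the 6 genes, against 7.27% of 27025 genes in the table. The longer motif lay in 4 of the 6, against 3.99% of genes, and the shorter one in *Ddx58* and *Adar*, against 3.70% of genes. *Mavs* and 4 genes with the longer motif are shown 5′ to 3′ on the strand of the gene, with every match in capitals.
Ddx58, chr4:40239776-40240075, minus strand: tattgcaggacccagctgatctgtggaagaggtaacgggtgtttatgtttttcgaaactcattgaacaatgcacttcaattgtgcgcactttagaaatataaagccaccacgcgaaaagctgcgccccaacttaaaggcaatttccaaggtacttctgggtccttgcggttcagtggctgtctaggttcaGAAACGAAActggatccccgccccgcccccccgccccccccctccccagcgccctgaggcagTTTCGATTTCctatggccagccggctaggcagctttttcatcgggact
Ifih1, chr2:62646206-62646505, minus strand: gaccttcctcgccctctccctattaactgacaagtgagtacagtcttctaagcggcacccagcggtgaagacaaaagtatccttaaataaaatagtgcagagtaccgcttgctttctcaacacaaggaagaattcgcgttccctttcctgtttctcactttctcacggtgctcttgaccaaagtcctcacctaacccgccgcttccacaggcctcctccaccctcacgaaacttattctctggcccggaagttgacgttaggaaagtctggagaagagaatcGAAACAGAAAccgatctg
Ddx60, chr8:61927837-61928136, plus strand: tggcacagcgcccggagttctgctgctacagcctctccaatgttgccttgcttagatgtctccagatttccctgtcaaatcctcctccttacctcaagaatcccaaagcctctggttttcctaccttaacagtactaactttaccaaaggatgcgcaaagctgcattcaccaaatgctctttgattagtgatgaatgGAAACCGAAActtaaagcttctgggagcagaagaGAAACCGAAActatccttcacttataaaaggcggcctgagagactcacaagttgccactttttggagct
Eif2ak2, chr17:78882523-78882822, minus strand: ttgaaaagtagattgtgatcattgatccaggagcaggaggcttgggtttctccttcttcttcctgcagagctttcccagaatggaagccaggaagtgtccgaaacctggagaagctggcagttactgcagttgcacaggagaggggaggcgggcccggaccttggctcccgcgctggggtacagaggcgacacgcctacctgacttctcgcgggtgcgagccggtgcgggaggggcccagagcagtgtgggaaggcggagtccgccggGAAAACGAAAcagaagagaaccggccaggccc
Mavs, chr2:131233813-131234112, plus strand: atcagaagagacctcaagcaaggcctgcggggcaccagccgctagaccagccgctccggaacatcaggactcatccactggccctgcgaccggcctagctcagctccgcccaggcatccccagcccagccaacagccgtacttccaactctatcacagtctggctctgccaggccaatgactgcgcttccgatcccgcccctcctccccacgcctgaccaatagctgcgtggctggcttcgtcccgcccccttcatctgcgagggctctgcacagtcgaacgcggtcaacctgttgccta

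With the first transcribed base as position 0, *Ddx60* carried 2 copies of the longer motif, at -53 to -44 and at -19 to -10. *Ddx58* carried the shorter motif at -60 to -52 and a longer one on the opposite strand at 2 to 11. In *Ifih1* the longer motif lay after the start, at 32 to 41, and in *Eif2ak2* at 18 to 27. *Adar* start 3 (window chr3:89730468-89730767, plus strand) carried the shorter motif at 28 to 36, and the other 2 *Adar* starts and *Mavs* carried neither within these windows. Unlike in the other windows, the stretch after *Adar* start 3 was not found unbroken in a GENCODE vM21 transcript of the gene. A match is a description of the letters and not evidence of binding, and a window without one says nothing of sites elsewhere.

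**Figure D1:**
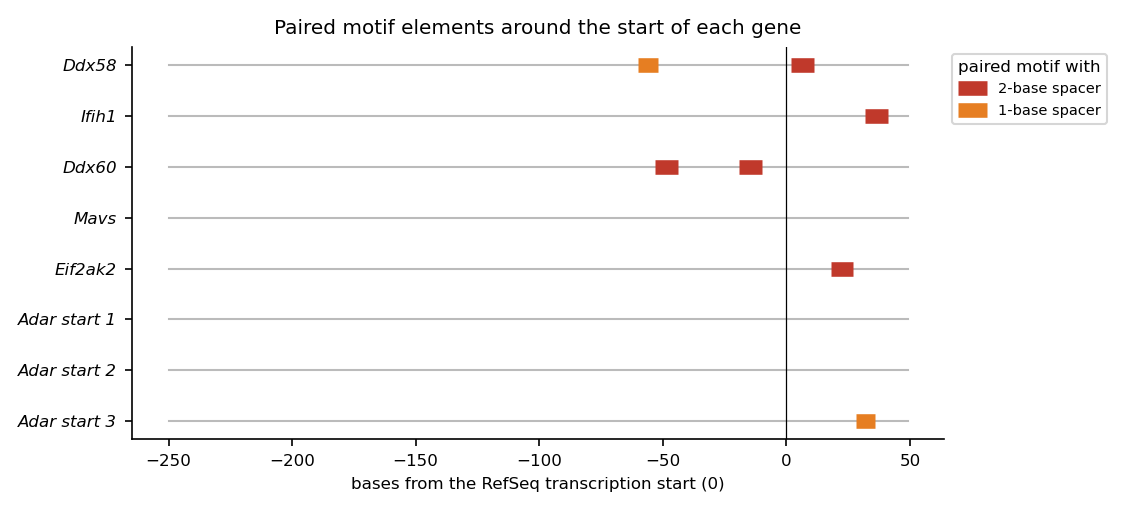
Positions of the paired motif elements around RefSeq transcription starts of 6 genes, in bases from the start (0). Bars are matches on either strand, with a spacer of 2 bases (red) or 1 base (orange). The windows of *Mavs* and of the first 2 *Adar* starts are empty.

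On GRCm38 (GENCODE vM21), all 8 are protein-coding genes. *Ifih1* (chromosome 2, 62595798-62646255, minus strand), *Mavs* (chromosome 2, 131234063-131248025, plus strand) and *Zbp1* (chromosome 2, 173206612-173218923, minus strand) lie on one chromosome. *Adar* lies at 89715022-89753446 on chromosome 3 (plus strand), *Ddx58* at 40203773-40239828 on chromosome 4 (minus strand) and *Ddx60* at 61928087-62038244 on chromosome 8 (plus strand). *Dhx58* lies at 100694884-100704271 on chromosome 11 (minus strand) and *Eif2ak2* at 78852564-78882573 on chromosome 17 (minus strand). Exons of *Dhx58* overlap the antisense gene *Dhx58os*, those of *Adar* overlap *Chrnb2*, and those of *Eif2ak2* overlap 2 non-coding genes, each on the opposite strand. Whether counting used strand is not given in the sources used here, so reads of such partners may be included.

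The libraries held 9734 barcodes and 99404988 UMIs in UEIS KI and 9527 barcodes and 92764697 UMIs in UEIS LSL, and 9442 cells of UEIS KI and 9370 of UEIS LSL passed the quality limits. Only 34 barcode sequences occurred in both. Cells were assigned barcode by barcode from marker genes, and most were macrophage-like by the complement genes *C1qa*, *C1qb* and *C1qc* (6085 cells in UEIS KI and 5585 in UEIS LSL). Myeloid cells with little C1q came next (1789 cells in UEIS KI and 1874 in UEIS LSL), then monocyte-like cells (299 in UEIS KI and 293 in UEIS LSL). There were 140 T cell-like, 94 cDC2-like and 55 mature dendritic cell-like cells in UEIS KI, and 157, 200 and 93 in UEIS LSL. The C1q cut is a point on a range, with 624 cells near it in UEIS KI and 456 in UEIS LSL. In the monocyte-like class only 3 of 6 markers not used by the gate stood above the other cells in UEIS KI, and 2 of 6 in UEIS LSL. In the C1q-low class 8 of 8 macrophage markers were seen in at least 20% of cells, but none stood above the other cells. C1q RNA amounted to between 1.60% and 4.71% of its macrophage-like level across the remaining classes of 20 cells or more, a measure of free macrophage RNA that the gates themselves hold low in part.

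The tumour-like cells could not be named. A gate on the keratins *Krt8* and *Krt18* found 0 cells with 2 UMIs in UEIS KI and 1 in UEIS LSL, so cells with *Tm4sf1* and almost no *Ptprc* were taken in its place, after the data were seen. They numbered 169 in UEIS KI and 275 in UEIS LSL. *Krt18*, *Epcam*, *Cldn4*, *Cldn7* and *Perp* were at 0 UMIs in these cells of both libraries. The leading genes of the cells were *Tm4sf1*, *Crabp1* and *Sox9*, and *Ptprc* was seen in 6.51% of these cells in UEIS KI and 11.3% in UEIS LSL. They are called low-Ptprc Tm4sf1 cells here. The libraries drew them from different clusters. A cluster led by *Crabp1* and *Dcn* (cluster 16) held 76.3% of them in UEIS KI and 13.5% in UEIS LSL, and one led by *Cadm1* and *Stra6* (cluster 12) held 17.8% in UEIS KI and 83.3% in UEIS LSL. The matrix gene *Dcn* stood at 997 UMIs per 1000000 of the class total (CPM) in UEIS KI and 206 CPM in UEIS LSL.

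Levels in CPM are UMIs summed over the cells of a class, relative to all UMIs of that class, with exact 95% Poisson intervals. Because each kind of mouse had 1 library, no test was possible, and the intervals throughout reflect counting error alone and say nothing of how mice vary. Shares of a transcript captured at its 3′ end differ between genes, so levels are compared within a gene and not between genes.

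Of the sensors, *Ddx58* was highest in T cell-like cells of UEIS KI (27.7 CPM) and in monocyte-like cells of UEIS LSL (32.7 CPM, against 31.8 CPM in T cell-like cells). Macrophage-like cells had 10.5 CPM (9.69 to 11.3) in UEIS KI and 16.4 CPM (15.4 to 17.5) in UEIS LSL. The low-Ptprc Tm4sf1 cells had 4.94 CPM in UEIS KI and 9.59 CPM in UEIS LSL. In the order of classes with at least 50 cells, most neighbours could not be separated by counting error. The exception for *Ddx58* was macrophage-like over C1q-low myeloid cells in UEIS KI.

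*Ifih1* ranked first in mature dendritic cell-like cells of both libraries, with 34.2 CPM (17.1 to 61.2, 11 UMIs) in UEIS KI and 46.9 CPM (31.1 to 67.7, 28 UMIs) in UEIS LSL. T cell-like cells followed with 27.7 CPM in UEIS KI and 38.4 CPM in UEIS LSL, within counting error of the first place. Macrophage-like cells had 12.5 CPM in UEIS KI and 17.7 CPM in UEIS LSL. The low-Ptprc Tm4sf1 cells ranked last in both, with 3.48 CPM in UEIS KI and 9.42 CPM in UEIS LSL. In the same dendritic cells *Ddx58* had 3.11 CPM (0.079 to 17.3, 1 UMI) in UEIS KI and 10.0 CPM (3.69 to 21.9, 6 UMIs) in UEIS LSL. *Dhx58* had 3.11 CPM (0.079 to 17.3, 1 UMI) in UEIS KI and 8.37 CPM (2.72 to 19.5, 5 UMIs) in UEIS LSL. These intervals include the macrophage-like level of each gene.

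*Dhx58* was highest in monocyte-like cells, at 23.5 CPM in UEIS KI and 26.0 CPM in UEIS LSL, and lowest in the low-Ptprc Tm4sf1 cells, at 2.61 CPM in UEIS KI and 2.74 CPM in UEIS LSL. Macrophage-like cells held 11.6 CPM in UEIS KI and 17.6 CPM in UEIS LSL. *Ddx60* was sparse, with 5 UMIs in monocyte-like cells of UEIS KI and 12 in those of UEIS LSL. It stood at 5.93 CPM in macrophage-like cells of UEIS KI and 5.76 CPM in those of UEIS LSL, against 2.07 CPM in UEIS KI and 4.59 CPM in UEIS LSL in C1q-low myeloid cells and 0.871 CPM in UEIS KI and 1.71 CPM in UEIS LSL in low-Ptprc Tm4sf1 cells.

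The level of the adaptor *Mavs* in the 7 classes holding 50 cells or more in both libraries ran from 6.22 CPM in mature dendritic cell-like cells to 20.6 CPM in low-Ptprc Tm4sf1 cells in UEIS KI. In UEIS LSL it ran from 15.1 CPM to 26.2 CPM in the same 2 classes. Outside these 7 classes, fibroblast-like cells had 18.4 CPM (13 UMIs) of *Mavs* in UEIS KI and 7.33 CPM (13 UMIs) in UEIS LSL. *Mavs* was the one member that ranked first in the low-Ptprc Tm4sf1 cells of both libraries, and in UEIS LSL its interval there stood clear of the next class, the macrophage-like cells at 20.4 CPM. In UEIS KI the 2 classes were within counting error.

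Among the effectors, *Eif2ak2* was also high in the low-Ptprc Tm4sf1 cells, at 22.9 CPM in UEIS KI, where it ranked first, and 31.4 CPM in UEIS LSL, where monocyte-like cells had 33.4 CPM. For *Adar*, macrophage-like cells had 13.3 CPM in UEIS KI and 14.3 CPM in UEIS LSL, and no neighbours in its order of classes could be separated in either library. *Zbp1* was highest in monocyte-like cells. These had 71.2 CPM (59.1 to 85.0) in UEIS KI and 128 CPM (109 to 148) in UEIS LSL, clear of the next class in both libraries. The gate of the monocyte-like class includes interferon-induced genes, so the first place of *Zbp1* and *Dhx58* there is not independent of the gate. How far the gate sets these levels was not tested. Low-Ptprc Tm4sf1 cells were last with 1.74 CPM (6 UMIs) in UEIS KI and 9.08 CPM (53 UMIs) in UEIS LSL.

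**Figure D2:**
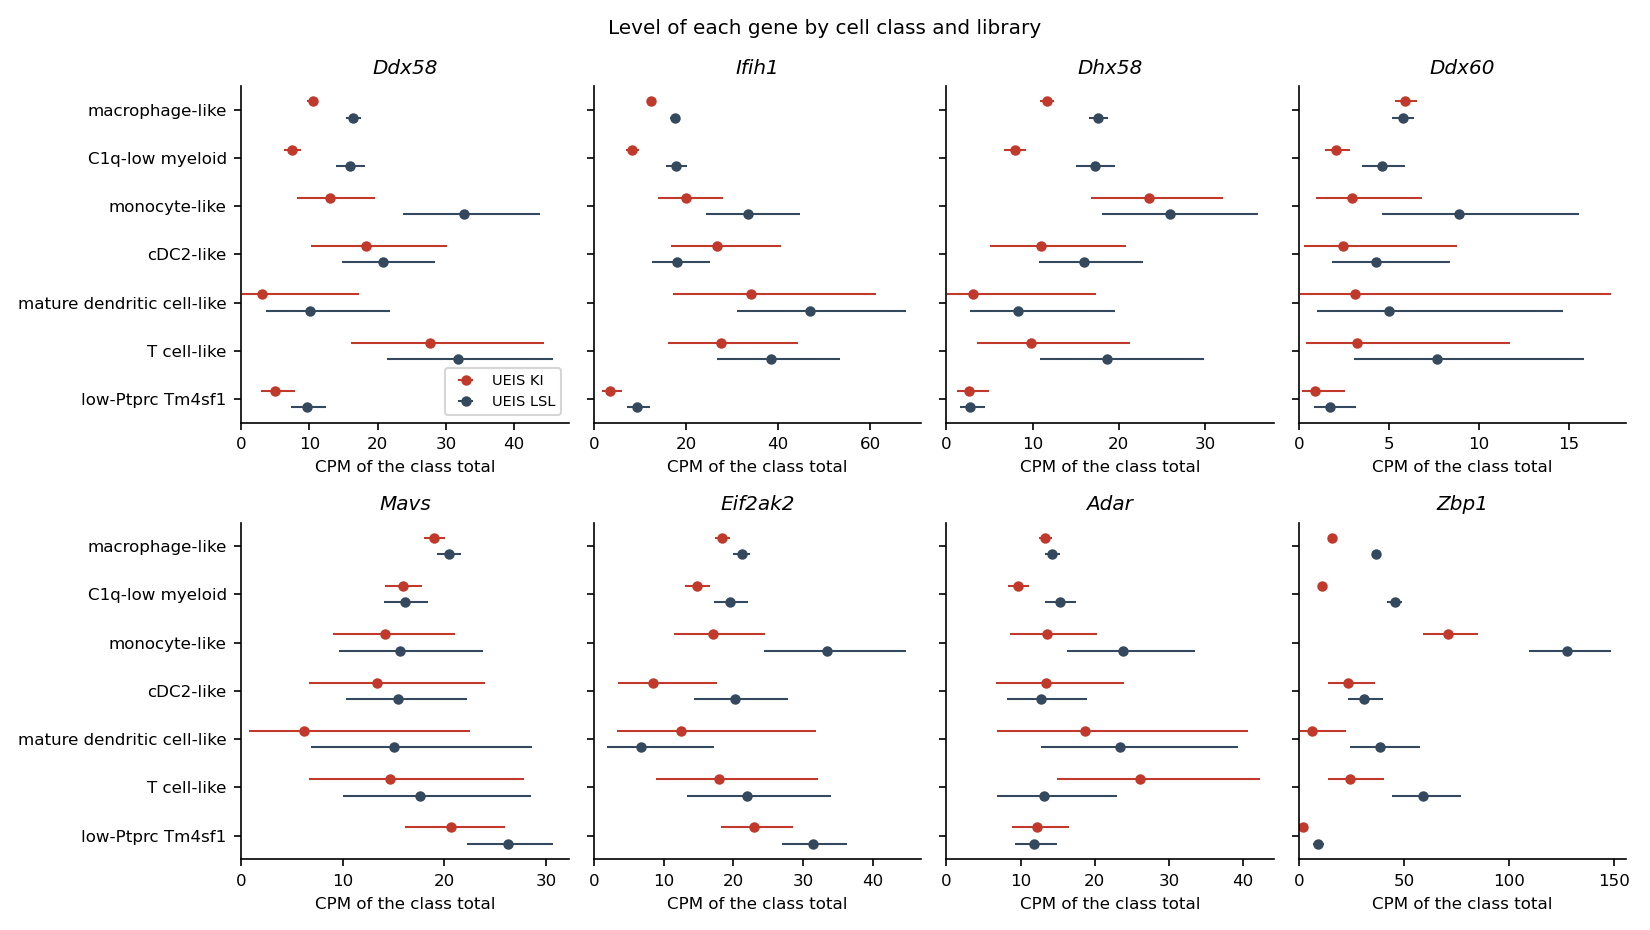
Level of each gene in CPM of the class total (x axis, linear, its own scale per gene) in the 7 cell classes with at least 50 cells in both libraries. Points are UEIS KI (red, upper) and UEIS LSL (dark, lower), and bars are 95% Poisson intervals. *Zbp1* peaks in monocyte-like cells at 71.2 CPM in UEIS KI and 128 CPM in UEIS LSL.

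Set against macrophage-like cells of the same library, the low-Ptprc Tm4sf1 cells held less of the 4 helicases and of *Zbp1*. These 5 of 8 genes had counting intervals below the macrophage-like level in both libraries, where 23.9% of 12522 genes measured did so, and no member was above it in both libraries, against 44.1% of genes. The *Zbp1* level was 9.05-fold lower than in macrophage-like cells in UEIS KI and 4.02-fold lower in UEIS LSL. In UEIS KI *Dhx58* was 4.45-fold, *Ddx60* 6.80-fold, *Ifih1* 3.58-fold and *Ddx58* 2.12-fold lower. In UEIS LSL *Dhx58* was 6.43-fold, *Ddx60* 3.36-fold, *Ifih1* 1.87-fold and *Ddx58* 1.71-fold lower. In UEIS KI *Mavs* had a log2 ratio of 0.12 and *Eif2ak2* of 0.32 over macrophage-like cells, with intervals that included 0. In UEIS LSL the log2 ratios were 0.36 and 0.57, with intervals above 0. Subtracting the macrophage RNA estimated from C1q left the same 5 genes below.

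**Figure D3:**
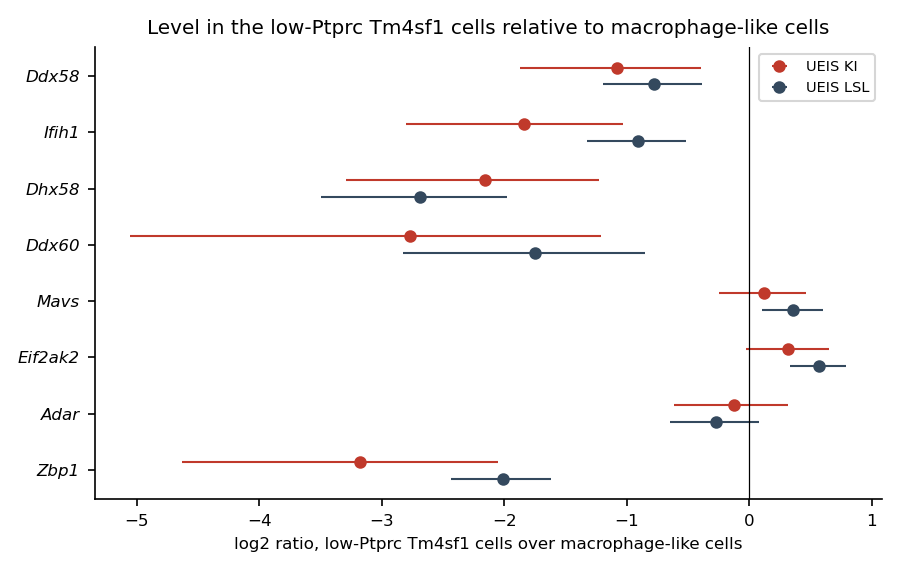
The log2 ratio of low-Ptprc Tm4sf1 over macrophage-like cells for each gene, within UEIS KI (red, upper) and within UEIS LSL (dark, lower), with 95% counting intervals. The 4 helicase genes and *Zbp1* lie left of 0 in both libraries, and the *Mavs* and *Eif2ak2* intervals lie right of 0 in UEIS LSL.

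The study compared UEIS KI with UEIS LSL. A gene was measured in a class if it had at least 50 UMIs over both libraries, and it was counted as lower or higher in UEIS KI where the levels differed at least 1.5-fold and the 95% interval of the ratio did not reach 1. The 5 classes that held 100 cells or more in both libraries were compared, and no member was counted as higher in UEIS KI in any of the 5.

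In macrophage-like cells 3 of 8 members, *Zbp1*, *Ddx58* and *Dhx58*, were lower in UEIS KI, where 5.03% of 13443 measured genes were lower and 5.02% higher. *Zbp1* had 15.8 CPM (1046 UMIs) in UEIS KI and 36.5 CPM (2074 UMIs) in UEIS LSL, a level 2.32-fold lower (2.15 to 2.50). *Ddx58* was 1.57-fold lower (1.42 to 1.74), at 10.5 CPM in UEIS KI and 16.4 CPM in UEIS LSL. *Dhx58* was 1.51-fold lower (1.38 to 1.66), just past the limit, and under 6 of 10 other settings it was not counted. With classes taken from clusters, *Zbp1* alone of the 8 was lower. *Ifih1*, at 1.42-fold lower (1.29 to 1.55), was just inside it. The remaining 4 were closer to parity, with log2 ratios of -0.20 for *Eif2ak2*, -0.10 for *Mavs*, -0.10 for *Adar* and 0.04 for *Ddx60*. The median log2 ratio over the 8 members was -0.35, beside 0.03 over all genes measured.

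In C1q-low myeloid cells 6 of 8 members were lower in UEIS KI, where 5.13% of 11171 genes were lower and 7.60% higher. *Zbp1* had 11.1 CPM in UEIS KI and 45.5 CPM in UEIS LSL, 4.08-fold lower (3.49 to 4.80). The 4 helicases were lower by similar factors, 2.14-fold for *Ddx58*, 2.14-fold for *Ifih1*, 2.18-fold for *Dhx58* and 2.22-fold for *Ddx60*. *Adar* was 1.59-fold lower (1.30 to 1.96), with 9.61 CPM in UEIS KI and 15.3 CPM in UEIS LSL, and was not counted when cluster shares were equalised (log2 ratio -0.55). *Eif2ak2* was lower by 1.32-fold (1.11 to 1.57), and *Mavs* stood at 15.9 CPM in UEIS KI and 16.1 CPM in UEIS LSL. The median log2 ratio of the members was -1.10, beside 0.09 over all genes. Median depth in this class was 8528 UMIs per cell in UEIS KI and 5740 in UEIS LSL, and its part in these ratios was covered only by thinning the cells to 1000 UMIs, which left 2 of 4 measured members lower.

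In monocyte-like cells 4 of 6 measured members were lower in UEIS KI, where 3.88% of 5877 genes were lower and 4.80% higher. *Ddx58* had 12.9 CPM (22 UMIs) in UEIS KI and 32.7 CPM (44 UMIs) in UEIS LSL. *Eif2ak2* had 17.1 CPM in UEIS KI and 33.4 CPM in UEIS LSL, *Zbp1* 71.2 CPM in UEIS KI and 128 CPM in UEIS LSL, and *Ifih1*, with 34 UMIs in UEIS KI and 45 in UEIS LSL, was 1.67-fold lower (1.05 to 2.69). *Adar*, at 13.5 CPM in UEIS KI and 23.8 CPM in UEIS LSL, had an interval that reached 1, and *Dhx58*, at 23.5 CPM in UEIS KI and 26.0 CPM in UEIS LSL, was near parity. The median log2 ratio was -0.83, beside 0.06 over all genes. When the class was taken from clusters in place of gates, 1 of 7 measured members was lower, and none of the 4 above was. The 1 lower member was not among the 6 measured with the gates. *Zbp1* then had a log2 ratio of -0.49 and *Eif2ak2* of 0.033. *Ifih1* was also not counted when cluster shares were equalised (-0.55).

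In T cell-like cells 2 members were measured and 1, *Zbp1*, was lower in UEIS KI, where 6.12% of 4280 genes were lower and 4.0% higher. *Zbp1* had 24.4 CPM (15 UMIs) in UEIS KI and 59.3 CPM (54 UMIs) in UEIS LSL, 2.43-fold lower (1.35 to 4.63). *Ifih1* had 27.7 CPM in UEIS KI and 38.4 CPM in UEIS LSL, with an interval that included 1. Median depth was 2411 UMIs per cell in UEIS KI and 3631 in UEIS LSL.

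In low-Ptprc Tm4sf1 cells 3 of 6 measured members were lower in UEIS KI, where 4.82% of 9978 genes were lower and 5.86% higher. *Zbp1* had 1.74 CPM in UEIS KI and 9.08 CPM in UEIS LSL, 5.21-fold lower (2.24 to 14.8). *Ifih1* was 2.70-fold lower (1.43 to 5.55) and *Ddx58* 1.94-fold lower (1.11 to 3.57). *Mavs*, *Eif2ak2* and *Adar* had log2 ratios of -0.35, -0.45 and 0.05, beside a median of 0.02 over all genes. The class drew on different clusters in the 2 libraries. Giving each cluster the same weight in both libraries left 1 of the 6, *Ifih1*, counted as lower, by an interval not recomputed for the reweighted ratio. Within cluster 12 *Ifih1* had 2 UMIs in UEIS KI and 52 in UEIS LSL, a log2 ratio of -1.44 (-4.52 to 0.49). In cluster 16 it had 9 UMIs in UEIS KI and 3 in UEIS LSL, a log2 ratio of -0.19 (-2.20 to 2.33), so both intervals included 0. In cluster 12 *Zbp1* had 9.68 CPM (5 UMIs) in UEIS KI and 9.49 CPM (47 UMIs) in UEIS LSL. In cluster 16 it had 0.347 CPM (1 UMI) in UEIS KI and 7.15 CPM (6 UMIs) in UEIS LSL. The log2 ratio there was -4.36 (-9.89 to -1.32), on few UMIs. With every cell given the same weight, *Ifih1* was not counted as lower (log2 ratio -0.26). *Dcn* differed within cluster 12 too, at 472 CPM in UEIS KI and 77.2 CPM in UEIS LSL, and library and cluster cannot be told apart for most of these cells.

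**Figure D4:**
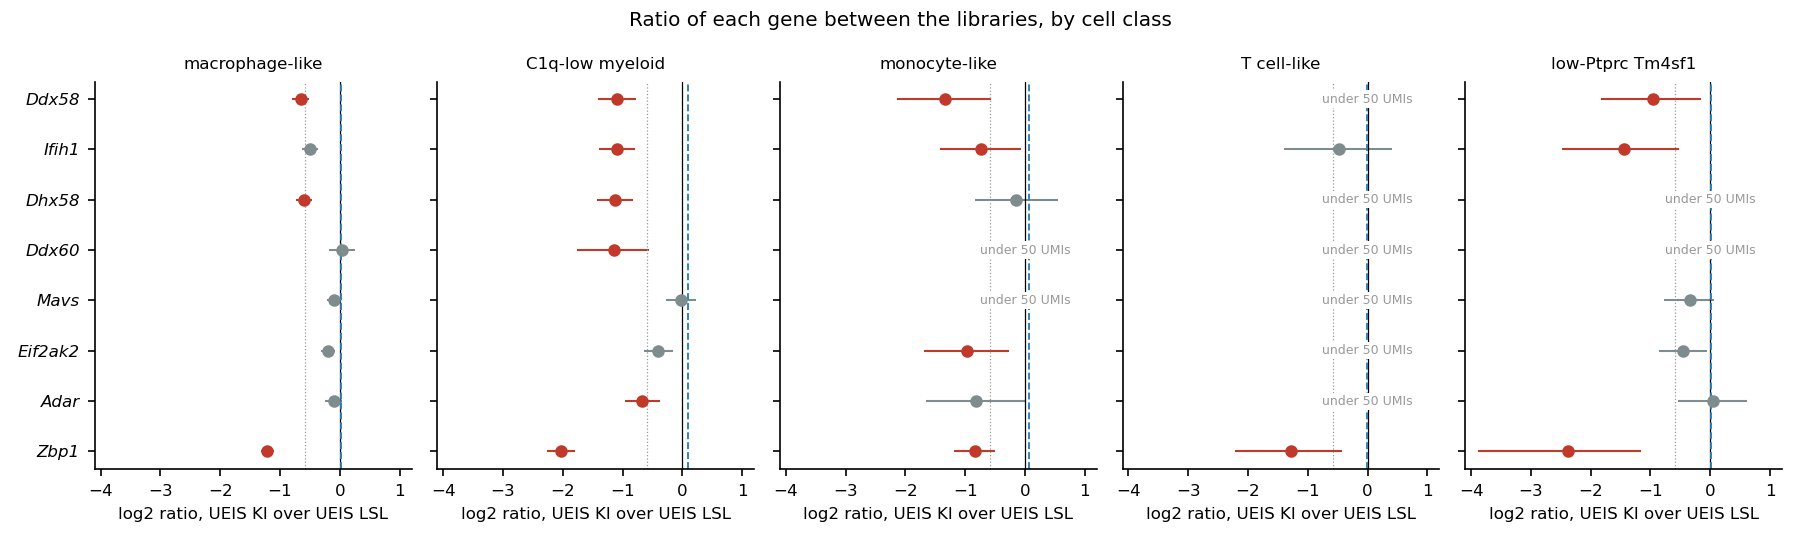
The log2 ratio of UEIS KI over UEIS LSL for each gene in the 5 cell classes compared, with 95% counting intervals. Red points are at least 1.5-fold lower (dotted line) with the interval below 0, grey points are not, and the dashed line is the median of all measured genes. Red points lie on the left only, and *Mavs* is grey in each class where it was measured.

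The 2 large myeloid classes were then divided into 11 clusters, found for both libraries together on genes that excluded the 8 members and interferon-induced genes. *Zbp1* was lower in UEIS KI in 8 of the 11 and its interval lay below 1 in 10, whereas between 1.79% and 5.19% of all measured genes were lower in a cluster. *Dhx58* was lower in 6 of 11 clusters, *Ddx58* and *Ifih1* each in 4 of 10 with enough UMIs, *Adar* in 2 of 11 and *Ddx60* in 1 of 5. *Mavs* and *Eif2ak2* were each lower in 1 of 11. No member was counted as higher in any cluster, against between 2.55% and 5.14% of genes. By cluster number, 4 of 7 measured members were lower in cluster 0 (2.73% of genes), 1 of 8 in cluster 1 (2.33%), 1 of 8 in cluster 3 (3.26%) and 2 of 8 in cluster 5 (4.01%). The counts were 1 of 7 in cluster 6 (3.06%), 3 of 7 in cluster 7 (2.16%), 3 of 7 in cluster 8 (3.08%) and 0 of 5 in cluster 10 (2.66%). The member lower in cluster 6 was *Mavs*, at 11.2 CPM in UEIS KI and 19.7 CPM in UEIS LSL.

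A cluster led by *Mmp12* and *Ero1a* (754 cells in UEIS KI and 1302 in UEIS LSL), with the hypoxia-response genes *Hilpda* and *Slc2a1* among its leading genes, had 7 of 8 members lower in UEIS KI, against 5.19% of genes. Its *Zbp1* level was 18.0 CPM in UEIS KI and 77.7 CPM in UEIS LSL. *Ddx58* had 8.18 CPM in UEIS KI and 26.1 CPM in UEIS LSL there, and *Dhx58* 10.3 CPM in UEIS KI and 26.7 CPM in UEIS LSL. *Mavs* was the exception, at 10.4 CPM in UEIS KI and 10.2 CPM in UEIS LSL. The UEIS LSL level of *Zbp1* was the highest of the 11 clusters, whereas the UEIS KI level stood within the range of the others, 3.50 to 39.9 CPM. The cluster made up 18.5% of C1q-low myeloid cells in UEIS KI and 39.2% in UEIS LSL, and when cluster shares were equalised the median log2 ratio of the members in that class was -0.68.

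A cluster led by *Ccl8* and *Lyve1* (1080 cells in UEIS KI and 427 in UEIS LSL) had the highest *Ddx60* level of the 11. It stood at 27.3 CPM in UEIS KI and 36.8 CPM in UEIS LSL, and over both libraries 30.0 CPM, against 1.35 CPM in the lowest of the 11 clusters. Levels of *Ddx58*, *Ifih1*, *Eif2ak2* and *Adar* were also highest there in each library. *Ddx58* stood at 18.6 CPM in UEIS KI and 38.9 CPM in UEIS LSL, *Ifih1* at 22.8 CPM in UEIS KI and 41.4 CPM in UEIS LSL, and 4 of 8 members were lower in UEIS KI, against 3.19% of genes. The cluster made up 17.7% of macrophage-like cells in UEIS KI and 7.63% in UEIS LSL. When cluster shares were equalised between libraries, the *Ddx60* log2 ratio in macrophage-like cells was -0.47 in place of 0.04, and the median over the 8 members was -0.51. No counting interval was computed for the reweighted ratio. Over the 10 other settings the *Ddx60* log2 ratio in macrophage-like cells ran from -0.47 to 0.36. All 5 clusters with enough *Ddx60* UMIs had a ratio below 1, from -1.42 to -0.19 on the log2 scale. Of those with fewer UMIs, clusters 0, 7 and 8 had ratios below 1 and clusters 6, 9 and 10 above 1. Their intervals all included 1.

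Cells of a cluster led by the osteoclast genes *Ctsk* and *Acp5* (528 cells in UEIS KI and 230 in UEIS LSL) had the lowest levels of *Ddx58*, *Ifih1*, *Dhx58* and *Zbp1* among the 11 in each library. *Ddx58* had 62 UMIs in UEIS KI and 20 UMIs in UEIS LSL, a log2 ratio of levels of 0.30 (-0.45 to 1.10), and *Dhx58* stood at 5.91 CPM in UEIS KI and 4.79 CPM in UEIS LSL. *Zbp1* was the one member lower there, at 3.50 CPM in UEIS KI and 10.8 CPM in UEIS LSL, against 1.79% of genes. The cluster of dividing cells, led by *Ube2c* and *Top2a* (794 cells in UEIS KI and 541 in UEIS LSL), had 6.55 CPM in UEIS KI and 20.7 CPM in UEIS LSL of *Zbp1*, with *Mavs* at 21.2 CPM in UEIS KI and 22.7 CPM in UEIS LSL.

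**Figure D5:**
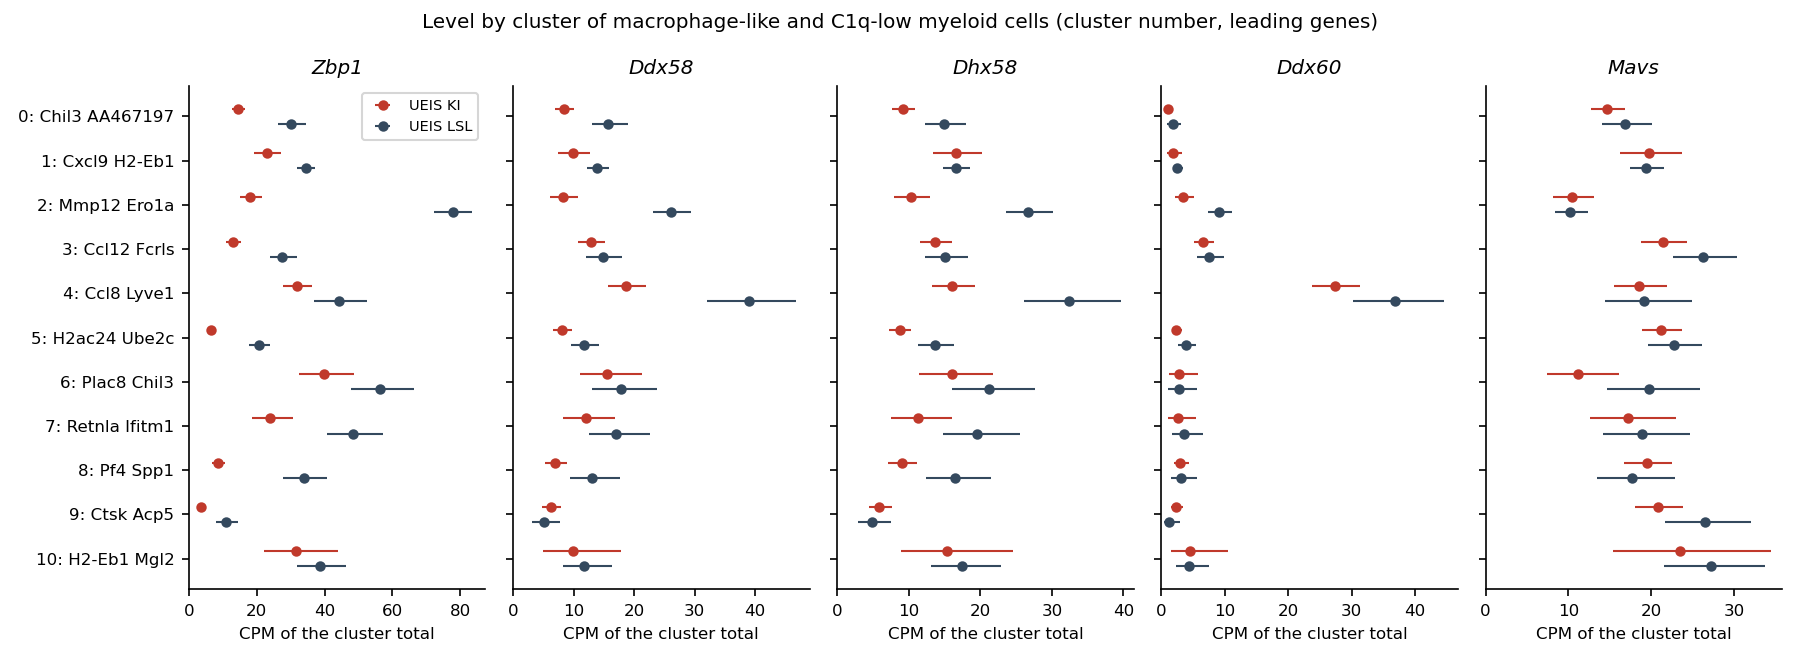
Level in CPM of the cluster total for 5 genes in 11 clusters of macrophage-like and C1q-low myeloid cells, named by number and leading genes, in UEIS KI (red, upper) and UEIS LSL (dark, lower), with 95% Poisson intervals. *Zbp1* is 18.0 CPM in UEIS KI and 77.7 CPM in UEIS LSL in cluster 2, *Ddx60* stands out in cluster 4.

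A list of 74 genes around the 8 members covered co-receptors, regulators, signalling below MAVS, the translation and death arms, and editing and RNA decay. In macrophage-like cells 1 of 70 measured was lower in UEIS KI, *Irf7*, which encodes the transcription factor that amplifies interferon production, at 26.3 CPM in UEIS KI and 47.0 CPM in UEIS LSL, and 1 was higher, the editor gene *Adarb1*, at 1.42 CPM in UEIS KI and 0.617 CPM in UEIS LSL. Of all measured genes there, 5.03% were lower and 5.02% higher. In C1q-low myeloid cells 4 of 69 were lower, near the share of all genes (5.13%), and none was higher, against 7.60%. *Irf7* had 20.2 CPM in UEIS KI and 107 CPM in UEIS LSL, the antiviral zinc-finger gene *Zc3hav1* had 50.9 CPM in UEIS KI and 76.7 CPM in UEIS LSL, and *Ikbkg*, a subunit of the IKK kinase, had 10.7 CPM in UEIS KI and 16.8 CPM in UEIS LSL. *Ticam1*, the adaptor of the endosomal sensor TLR3, had 8.17 CPM in UEIS KI and 12.9 CPM in UEIS LSL.

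Over all measured genes the shares were 3.88% lower and 4.80% higher in monocyte-like cells and 4.82% lower and 5.86% higher in low-Ptprc Tm4sf1 cells. In T cell-like cells the shares were 6.12% lower and 4.0% higher. In monocyte-like cells 3 of 54 were lower, *Irf7* (136 CPM in UEIS KI and 275 CPM in UEIS LSL), *Zc3hav1* (53.5 CPM in UEIS KI and 91.3 CPM in UEIS LSL) and the stress-response gene *Ddit3* (24.7 CPM in UEIS KI and 46.8 CPM in UEIS LSL). The 3 that were higher were the exonuclease gene *Xrn1* (22.4 CPM in UEIS KI and 10.4 CPM in UEIS LSL), the adaptor gene *Tradd* (44.7 CPM in UEIS KI and 26.7 CPM in UEIS LSL) and the eIF2 alpha kinase gene *Eif2ak1* (24.7 CPM in UEIS KI and 13.4 CPM in UEIS LSL). In T cell-like cells 1 of 38 was lower, *Irf7*, at 39.1 CPM in UEIS KI and 82.3 CPM in UEIS LSL, and 2 were higher, the ubiquitin ligase gene *Rnf125* and *Sidt2*. In low-Ptprc Tm4sf1 cells none of 63 was lower and 4 were higher, the helicase genes *Dhx36* (133 CPM in UEIS KI and 80.7 CPM in UEIS LSL) and *Dhx33* (13.1 CPM in UEIS KI and 7.54 CPM in UEIS LSL), the ubiquitin ligase gene *Smurf1* (32.2 CPM in UEIS KI and 17.0 CPM in UEIS LSL) and the kinase gene *Ikbke* (8.71 CPM in UEIS KI and 3.77 CPM in UEIS LSL). The median log2 ratio of the list lay between -0.07 and 0.06 in the 5 classes.

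Over 16 points, the classes of each library with at least 50 cells, the level of *Zbp1* was most like that of *Irf7* (Pearson r = 0.96 on log2 CPM) and *Rtp4* (0.93) among 5532 genes, and among the members it was most like *Dhx58* (0.88). *Ddx58* was most like *Mndal* (0.97) and *Ifi203* (0.96), *Ifih1* most like *Dtx3l* (0.94) and *Parp14* (0.92), and *Dhx58* most like *Fcgr1* (0.94) and *Chmp4b* (0.93). *Mavs* was most like *Hnrnpm* (0.90) and *Gtf2f1* (0.88), which encode RNA-processing and general transcription proteins. For *Ddx60* the most alike were *Slfn1* (0.83) and *Hnrnph2* (0.82), for *Eif2ak2* *Polr2d* (0.80) and *Tmem230* (0.80), and for *Adar* *Ncoa3* (0.78) and *Dusp11* (0.77). The points share 2 libraries and their depth, so these values describe likeness only.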

How the data were processed

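RNA was measured by 10x Genomics Single Cell 3′ v3 sequencing. Raw UMI counts, not normalised, were deposited as 1 matrix per library. Cell Ranger 2.1.1 and mm10 are named in the submitters' processing notes, but version 8.0.1 stands in the file headers. The annotation is not given in the sources used here, and 52081 of 55357 gene identifiers (94.1%) matched GENCODE vM21.

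Barcodes under 500 UMIs or 200 genes, or above 10% mitochondrial UMIs, were removed. Classes were gated from marker genes per barcode, with minimums set after the data were seen (C1q at least 15 per 10000 UMIs for macrophage-like cells, 3 or 10 UMIs of a lineage's genes for others). Barcodes of more than 1 lineage, and T cells or neutrophils with that much C1q, were set apart, and barcodes marked by Scrublet were removed only in an alternative. UMIs were summed per library and class. CPM have exact Poisson intervals, and ratios of UEIS KI over UEIS LSL have exact conditional binomial intervals (Python 3.11.15, scipy 1.17.1). The ratio intervals were checked only on counts simulated with Poisson error, which hold no spread between cells, clusters or mice. Clusters came from scanpy 1.11.5 and leidenalg 0.10.2 (2000 variable genes, 30 components, 15 neighbours, resolution 1). Median depth was 8760 UMIs per barcode in UEIS KI and 8117 in UEIS LSL.

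The members and gene lists were chosen with earlier results of these data known. All members were named. From the pathway list up to 4 genes higher and 4 lower per class were named, ranked by the interval bound nearest 1, and for each member the 2 most alike protein-coding genes with at least 50 CPM in 1 class (pseudocount 10 CPM). The alternatives tried were limits on quality, doublets, classes, depth, scaling, cluster mix, UMIs and fold. Where cells or clusters were reweighted, the interval of the first ratio was moved by the change in the estimate and not recomputed. Barcodes outside all gates and classes under 100 cells in a library entered no ratio comparison. Some marker genes are not reported here.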

Additional observations from a re-analysis of the deposited data

How the results depend on the processing

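With 1 library for each kind of mouse, nothing here measures the spread between mice. The median log2 ratio of the members stayed below 0 in all 57 recalculations over the 5 classes, and moved beyond counting error in 2 of them, to -0.51 in macrophage-like and -0.68 in C1q-low myeloid cells, both with the same mix of clusters. That weighting was planned for macrophage-like cells and was added for the other classes after the data were seen. Classes taken from clusters gave 1 lower member in macrophage-like and 1 in monocyte-like cells, in place of 3 and 4. None of the 4 calls in monocyte-like cells held there, and *Eif2ak2* had a log2 ratio of 0.033. A 2-fold limit gave 1 and 1 in the same classes. Thinning to 1000 UMIs gave 2 lower of 4 measured members in C1q-low myeloid and 1 of 1 in monocyte-like cells, and the construction of that alternative leaves fewer UMIs. The same mix of clusters gave 1 in low-Ptprc Tm4sf1 cells in place of 3. For the other changes the cause was not tested. The remaining 60 of 67 recalculated counts lay within 1.5 times of the first, 260 of 290 single ratios stayed within their intervals, and the same 5 members stayed below the macrophage-like level in low-Ptprc Tm4sf1 cells. Thinning gave no value in T cell-like and low-Ptprc Tm4sf1 cells, since no member reached 50 UMIs, and classes from clusters gave none in T cell-like cells. No paired analysis was possible because each group holds 1 library.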

Other observations

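Barcodes kept out of the class comparison showed the same members at uneven levels. Barcodes with T cell genes and C1q (124 in UEIS KI and 241 in UEIS LSL) had 20.1 CPM of *Zbp1* in UEIS KI and 58.1 CPM in UEIS LSL. They had 11.4 CPM in UEIS KI and 28.2 CPM in UEIS LSL of *Ifih1*. *Mavs* had 25.4 CPM (38 UMIs) in UEIS KI and 15.2 CPM (62 UMIs) in UEIS LSL there, a log2 ratio of 0.74 (0.12 to 1.35). Barcodes with markers of 2 lineages had 26.8 CPM in UEIS KI and 40.4 CPM in UEIS LSL of *Zbp1*. Those with neutrophil genes and C1q had 17.7 CPM in UEIS KI and 38.2 CPM in UEIS LSL of *Zbp1*.

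Classes with fewer than 100 cells in a library gave few UMIs. Mature dendritic cell-like cells had 6.22 CPM (2 UMIs) of *Zbp1* in UEIS KI and 38.5 CPM (23 UMIs) in UEIS LSL, while cDC2-like cells had 23.2 CPM in UEIS KI and 30.9 CPM in UEIS LSL, with an interval for the ratio that included 1. Fibroblast-like cells (34 in UEIS KI and 102 in UEIS LSL) had 21.2 CPM in UEIS KI and 34.4 CPM in UEIS LSL of *Zbp1* and 12.7 CPM in UEIS KI and 24.8 CPM in UEIS LSL of *Eif2ak2*. B cell-like cells (35 in UEIS KI and 24 in UEIS LSL) held 0 UMIs of *Ifih1* and *Ddx60* in both libraries, which allows up to 24.1 CPM in UEIS KI and 26.9 CPM in UEIS LSL at 3 counts.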
